A study of Mus musculus with 24 samples.

Results

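The recovery state of the wild-type mouse pancreas, 48 h into a caerulein-induced pancreatitis, was compared with the pancreas of saline-treated wild-type mice. The 2 groups were taken from the labels for genotype and treatment, and hold 6 of the 24 libraries of the series, each from polyadenylated RNA of the pancreas of 1 mouse. All mice were of C57BL background. The 3 mice of the 48 h group and the 3 of the saline group carry the +/+ genotype of Nr5a2, with both copies intact (called WT). The 48 h mice had received 7 intraperitoneal injections of caerulein, spaced 1 h apart, at 50 ug/kg each, and were killed 48 h after the first. The WT groups killed at 8 h and 24 h after the same injections, and the saline and 48 h groups of the +/- genotype with 1 intact copy (called HET), are used beside them, with 3 mice each. The labels give no age or sex, no vehicle volume and no time of killing for the saline mice.

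The saline and 24 h libraries were prepared by an earlier TruSeq guide and the 8 h and 48 h libraries by a v2 guide with fewer amplification cycles, and 1 WT saline library (replicate 3) stands in neither list. Treatment and guide therefore cannot be told apart in the comparison of 48 h with saline. The comparison of 48 h with 8 h lies within the v2 guide, and that of 24 h with saline within the earlier guide, apart from that 1 library, so both are given beside it. Levels are in FPKM as the authors deposited them, a unit that scales fragments to transcript length and library size, and the number of reads behind them is unknown. Their sums over all genes ran from 866120 to 1007572 in WT saline and from 394906 to 688666 in WT at 48 h, highest in replicate 1. Replicate 2 of the 48 h group stood apart in several lists: its summed B cell markers came to 2821 FPKM, against 10.3 and 509 FPKM in replicates 1 and 3 and 14.9, 226 and 442 FPKM in saline.

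The exocrine pancreas is built mainly of acinar cells, which devote most of their messenger RNA to digestive enzymes and depend on a large endoplasmic reticulum (ER) to fold and export them. Caerulein, an analog of the hormone cholecystokinin, overstimulates these cells. Surviving acinar cells lower their enzyme program and take on embryonic and duct-like features while macrophages enter and stellate cells, the fibroblasts of the pancreas, lay down matrix, and the tissue afterwards restores itself. In what follows a gene was called when the adjusted p of limma's moderated test on log2(FPKM + 1) was under 0.05, and differences are log2 values with their standard error (SE), n = 3 libraries per group.

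Of 12853 genes tested, 3259 were called between WT 48 h and WT saline (25.4%), of which 1523 were higher at 48 h (11.8% of genes tested) and 1736 lower (13.5%). The difference was at least 2-fold on the log2(FPKM + 1) scale for 537 of the higher and 429 of the lower genes, and the 6 values did not overlap between the groups for 3079 of the 3259. The number depends on single libraries: without replicate 2 of the 48 h group 1838 genes were called, 834 of them higher. The split depends on scaling. With libraries rescaled to their total outside the enzyme and Reg genes, the median of all genes moved from 0.02 to 0.45 and 3647 genes were called higher and 202 lower. With quantile normalization the calls were 1232 higher and 1876 lower. Directions below are on the authors' scale, and where that rescaling turns a list's direction it is said beside the list.

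**Figure D1:**
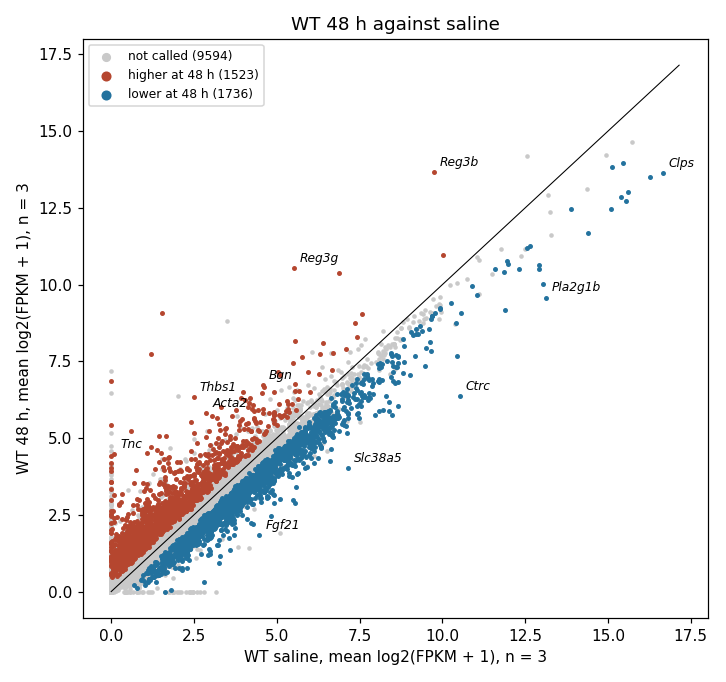
Mean log2(FPKM + 1) of each of the 12853 tested genes in WT saline (x axis) and WT 48 h (y axis), n = 3 libraries each; red and blue points are called higher and lower, grey points are not called, and the line marks equal levels. The digestive enzyme genes lie below the line at the top right, with Clps and Pla2g1b among them, and Reg3g and Reg3b lie above it.

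Digestive enzyme transcripts had not returned at 48 h. Of 38 enzymes and acinar secretory products listed, 8 were below the level filter and 11 were listed at 0 in every library of a compared group while abundant elsewhere (Cpb1, Cel, Pnlip, Prss2 and Cpa1 among them), which was taken as a failed estimate, so 19 could be tested. Of these 14 fell and none rose, with a median of -2.40. Clps, the colipase that anchors pancreatic lipase to fat droplets, read 90500, 116000 and 103000 FPKM in saline and 20500, 8120 and 12600 FPKM at 48 h, and was called lower (adjusted p = 0.0033). For Pla2g1b, the secreted phospholipase, the values were 7040, 10100 and 10100 FPKM in saline and 1100, 524 and 773 FPKM at 48 h, and the gene fell by 3.55 ± 0.72 (adjusted p = 0.0016). Every 48 h library lay below every saline library for both genes, and replicate 1 was the highest of the 48 h group for both. The level of a transcript in whole tissue does not tell fewer acinar cells from less of that RNA per cell, here and in all lists below.

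Among the other secretory genes, the protease genes Ctrl and Cela3b fell by 2.78 and 2.54, and Zg16, a lectin of the zymogen granule, fell by 2.82. Amy1, an amylase, read 248, 292 and 211 FPKM in saline and 73.8, 38.4 and 51.4 FPKM at 48 h. Ctrc, chymotrypsin C, had the largest fall of the genes named, by 4.15 ± 1.28 (adjusted p = 0.025), but its saline values were 12500, 609 and 413 FPKM and its call was lost without saline replicate 1 or without either of the 48 h replicates 2 and 3. The call of Ctrl was lost without saline replicate 2 or 48 h replicate 2, and that of Zg16 without any 1 of 4 of the 6 libraries. Enzyme families with near-identical members (trypsins, elastases, amylases) may share reads, so single members are uncertain. Tff2, a trefoil peptide secreted with mucus, and Pdia2, a disulfide isomerase of acinar cells, moved with the enzymes: Tff2 stood at 6770, 10400 and 8670 FPKM in saline and 1650, 662 and 1020 FPKM at 48 h, and Pdia2 fell by 2.72 ± 0.71 (adjusted p = 0.0088), a call lost without 48 h replicate 2.

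Summed over the 19 enzymes, the level was 375009, 500706 and 419050 FPKM in the saline libraries and 103449, 43285 and 64469 FPKM in the 48 h libraries. At 8 h it was 66860 to 118673 FPKM and at 24 h 40025 to 52000 FPKM. The 48 h values thus overlapped those at both earlier times and none reached saline. Between 48 h and 8 h, where 49.9% of all genes were called (22.5% higher and 27.4% lower at 48 h), 0 of 20 enzymes were called in either direction. The median of that difference over the 19 enzymes also tested against saline was -0.69. Between 24 h and saline, where 39.1% of all genes were called (20.5% higher and 18.6% lower at 24 h), 16 of 19 fell (median -2.98). Without 48 h replicate 2, which had the lowest sum, 9 of the 19 were called lower against saline, and with quantile normalization 4.

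Acinar transcription factors were mostly not called. Of 16 factors and partners tested, 5 fell and 1 rose (median -0.62). Ptf1a, the factor that drives enzyme genes, read 64.9, 44.7 and 42.5 FPKM in saline and 27.9, 11.5 and 19.5 FPKM at 48 h, with a call of lower that was lost without any 1 of 3 libraries, and Gata4 fell by 1.31 ± 0.25 (adjusted p = 0.00093). Nr5a2, a nuclear receptor that acts with PTF1 at enzyme genes, was at 12.6, 9.26 and 10.2 FPKM in saline and at 6.06, 4.08 and 6.2 FPKM at 48 h, and fell by 0.87 ± 0.19 (adjusted p = 0.0026) with no overlap between the groups, a call lost under the rescaling. Its 8 h values, 3.2, 2.25 and 2.78 FPKM, lay below all 3 of its 48 h values, and the rise from 8 h to 48 h within the v2 guide was 0.77 (adjusted p = 0.0021). Tcf3, which encodes the E proteins E12 and E47 that pair with PTF1A, was the 1 member called higher, by 0.52. Its call was lost without 48 h replicate 2 and when the spread came from the 2 compared groups alone. With the rescaling to the total outside the enzymes no factor was called lower, and without 48 h replicate 2 there were 2.

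**Figure D2:**
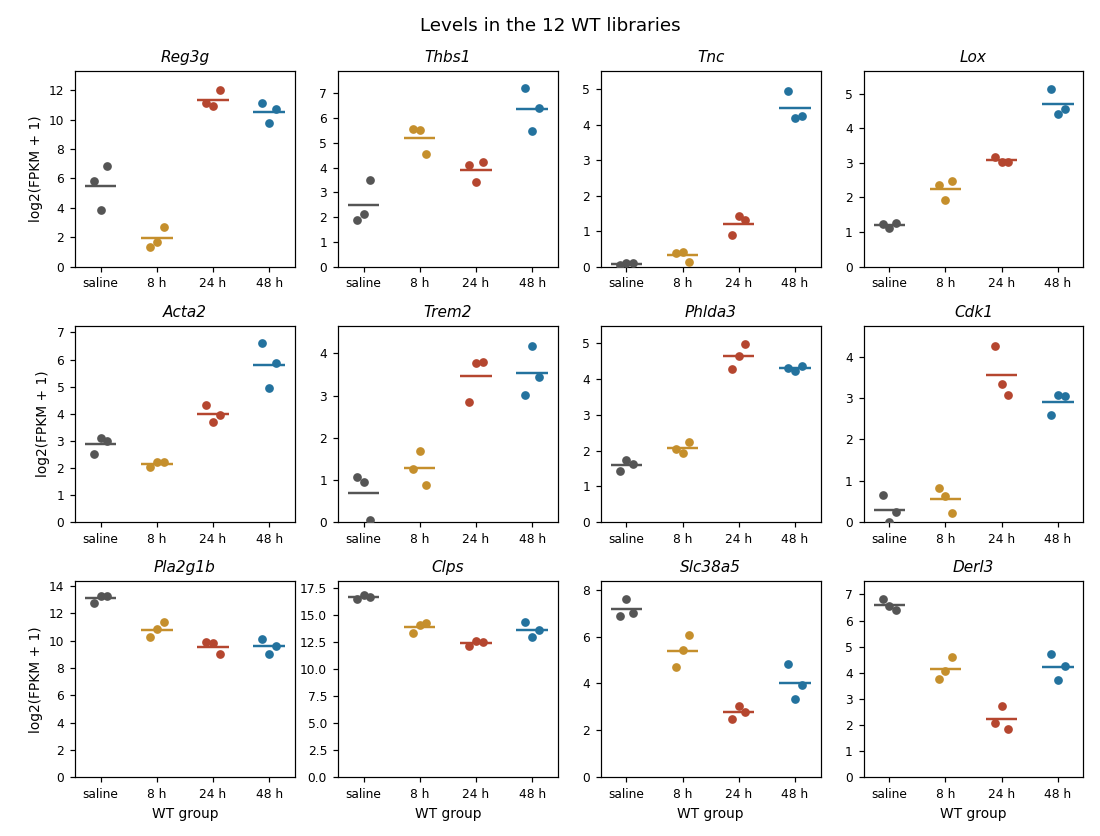
Levels of 12 genes as log2(FPKM + 1) in each of the 12 WT libraries, by group; points are libraries and bars are group means (n = 3). Tnc, Lox and Acta2 are highest at 48 h, Phlda3 and Trem2 stand near their 24 h level, and Pla2g1b, Clps, Slc38a5 and Derl3 remain below saline.

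ER folding genes fell as a group. Of 28 genes for folding, quality control and the unfolded protein response, 21 fell and none rose (median -1.04, against 0.02 over all genes). Derl3, which moves misfolded proteins out of the ER, read 112, 93.3 and 84.2 FPKM in saline and 25.1, 12.3 and 18.4 FPKM at 48 h, and fell by 2.36 ± 0.36 (adjusted p = 0.00013). P4hb, the main protein disulfide isomerase, was at 1600, 1740 and 1240 FPKM in saline and 726, 391 and 547 FPKM at 48 h. Dnajc3, a co-chaperone and inhibitor of the kinase PERK, fell by 1.58 ± 0.24 and Herpud1, a component of ER-associated degradation, was called lower with an adjusted p of 0.00064. None of these 4 genes had a 48 h value within the saline range. Of 31 genes for ER translocation and early secretory transport, 23 fell and none rose (median -0.89). They included Tmed10, a cargo receptor of coated vesicles, at 85.7, 91.3 and 72.1 FPKM in saline and 34.1, 29.5 and 30.7 FPKM at 48 h, Ssr4, a subunit of the translocon-associated complex (fall by 1.98), and Srp9 of the signal recognition particle (fall by 1.96).

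Within the v2 guide, 7 of the 28 folding genes were higher and 8 lower at 48 h than at 8 h, and 10 of the 31 transport genes higher and 6 lower. The folding counts are near the shares over all genes, 22.5% higher and 27.4% lower. Tmed10 rose by 0.69 from its 8 h values of 17.4, 17.7 and 22.7 FPKM, whereas Herpud1 fell by 2.05 from 250, 316 and 390 FPKM. Within the earlier guide, 19 of the 28 folding genes were already lower at 24 h than in saline, and Derl3 was lower at 24 h (3.28, 5.66 and 2.62 FPKM) than in any 48 h library. Under the rescaling to the total outside the enzymes 7 folding genes were called lower, and 6 transport genes lower and 2 higher, with list medians of -0.87 and -0.72 relative to the median of all genes. Without 48 h replicate 2 the count of folding genes called lower was 13.

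Promoters of folding genes are known for a shared sequence, the ER stress element, which is CCAAT, then any 9 bases, then CCACG, and to which the factors NF-Y and ATF6 bind. It was searched on both strands of windows from 250 bases before to 50 bases after the start, taken from RefSeq (GRCm38.p6), and the letters stood in 9 of the 22 folding genes that had a window and in 39 of all 32851 windows (0.119%). Of those 9, 6 were called lower at 48 h, beside 21 of all 28 folding genes tested and 13.5% of all genes. Whether the element had a part in the falls was not tested. The 250 bases before the start of 4 of the 9 are shown, because these 4 genes were all called lower at 48 h, with the element in capitals. In Derl3 and Creld2 it lies on the opposite strand and reads CGTGG, 9 bases, ATTGG.
Hspa5, chr2:34771840-34772089, plus strand: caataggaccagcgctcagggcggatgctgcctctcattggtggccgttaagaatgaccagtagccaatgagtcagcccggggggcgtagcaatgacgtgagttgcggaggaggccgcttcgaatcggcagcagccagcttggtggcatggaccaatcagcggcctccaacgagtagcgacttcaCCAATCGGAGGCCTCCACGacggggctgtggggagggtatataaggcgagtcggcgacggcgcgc
Derl3, chr10:75893148-75893397, plus strand: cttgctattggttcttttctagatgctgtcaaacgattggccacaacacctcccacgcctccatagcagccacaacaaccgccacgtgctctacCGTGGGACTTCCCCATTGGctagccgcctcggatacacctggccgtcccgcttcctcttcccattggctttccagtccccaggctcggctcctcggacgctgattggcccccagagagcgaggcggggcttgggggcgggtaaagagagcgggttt
Dnajc3, chr14:118937682-118937931, plus strand: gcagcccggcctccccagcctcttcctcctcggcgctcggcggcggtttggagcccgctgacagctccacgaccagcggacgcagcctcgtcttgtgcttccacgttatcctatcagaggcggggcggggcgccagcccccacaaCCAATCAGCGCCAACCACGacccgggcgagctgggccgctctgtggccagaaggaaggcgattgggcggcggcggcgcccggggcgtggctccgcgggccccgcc
Creld2, chr15:88819396-88819645, plus strand: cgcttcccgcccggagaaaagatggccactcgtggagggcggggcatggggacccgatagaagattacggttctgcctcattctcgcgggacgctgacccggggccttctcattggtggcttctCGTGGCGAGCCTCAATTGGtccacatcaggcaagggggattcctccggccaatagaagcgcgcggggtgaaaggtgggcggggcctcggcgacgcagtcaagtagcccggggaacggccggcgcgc

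The CCAAT letters at one end of the element are also the NF-Y box on their own. That box stood in 20 of the 22 folding windows and 37.4% of all windows, and also in 20 of 23 windows of mitosis genes, a list that rose, and 11 of 13 of clock genes. The letters CAAGGTCA, a sequence to which NR5A2 binds, stood in 1 of 13 enzyme windows (Klk1), in 0 of 13 windows of the acinar factors and in 1.56% of all windows. A match is a description of the letters and does not show binding, and a window without a match says nothing of the factor.

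Amino acid genes fell with the secretory apparatus. The list of 24 genes for amino acid synthesis and uptake and other targets of ATF4, the factor of the integrated stress response, had 14 lower and none higher (median -0.88), and under the rescaling 6 lower and 3 higher. Fgf21, a secreted hormone induced by ATF4 and made in large amounts by acinar cells, was at 31.6, 14.6 and 20.5 FPKM in saline and at 2.93, 2.46 and 2.45 FPKM at 48 h, and fell by 2.62 ± 0.34 (adjusted p = 3.1e-05). Atf5, a related factor, read 153, 131 and 76.9 FPKM in saline and 38.2, 34.1 and 38 FPKM at 48 h. Slc3a2 and Slc7a5, the 2 chains of a transporter of large amino acids, fell by 1.24 and 1.18, and Cth, which makes cysteine, by 1.77. Against 8 h, 22 of the 24 were lower at 48 h and none higher (median -2.60).

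Transport and use of glycine, glutamine and methionine, for which the acinar cell has its own set of abundant transcripts, had 10 of 12 genes lower (median -1.34), and under the rescaling 4. Slc38a5, a glutamine and glycine transporter, read 116, 195 and 126 FPKM in saline, 27.2, 9.18 and 14.4 FPKM at 48 h and 4.6, 7.28 and 5.92 FPKM at 24 h. Its fall by 3.12 ± 0.40 (adjusted p = 3e-05) left all 48 h values below saline and above all 24 h values. Gatm, which starts creatine synthesis, stood at 260, 234 and 224 FPKM in saline, 13.7, 13.7 and 10.1 FPKM at 8 h and 115, 54.8 and 97.8 FPKM at 48 h, so its 48 h values lay between those of the other 2 groups. Of 18 aminoacyl-tRNA synthetases, which charge tRNAs with amino acids, 8 were lower and none higher (median -0.43), led by Yars with a fall by 1.20. Under the rescaling to the total outside the enzymes that list turned direction, with 2 higher, none lower and a median of 0.18.

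Letters of the ATF4 site, TGATGNAA, searched in the same way, stood in 7 of the 21 windows of the amino acid list and 5 of the 10 of the synthetases, against 3.97% of all windows. Of these 12 genes, 2 of the 7 in the first list and 3 of the 5 in the second were called lower at 48 h. Over all tested members, with or without a window, 14 of 24 and 8 of 18 were called lower, and over all genes 13.5%. Whether the site had a part in the falls was not tested. The windows of Fgf21 and Asns, which makes asparagine, are shown up to the start with the site in capitals, since both genes were called lower and are textbook targets of ATF4. In Fgf21 the site lies on the opposite strand.
Fgf21, chr7:45615491-45615740, minus strand: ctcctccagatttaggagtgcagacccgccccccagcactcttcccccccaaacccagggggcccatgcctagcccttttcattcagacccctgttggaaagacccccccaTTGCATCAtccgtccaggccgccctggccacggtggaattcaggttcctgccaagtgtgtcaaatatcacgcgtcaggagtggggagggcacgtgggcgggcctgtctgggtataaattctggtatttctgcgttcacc
Asns, chr6:7693210-7693459, minus strand: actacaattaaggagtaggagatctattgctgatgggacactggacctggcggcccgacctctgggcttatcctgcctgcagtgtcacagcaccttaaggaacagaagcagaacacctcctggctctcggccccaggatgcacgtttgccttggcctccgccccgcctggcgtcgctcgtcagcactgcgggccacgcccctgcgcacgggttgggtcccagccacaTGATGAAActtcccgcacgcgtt

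Some Reg family lectins, small secreted proteins induced in injured acinar cells, were among the largest rises. The sum of the 6 members tested overlapped between the groups, at 68185, 45073 and 82677 FPKM in saline and 81620, 39478 and 69257 FPKM at 48 h. Reg3g read 56.6, 13.3 and 115 FPKM in saline and 2270, 853 and 1690 FPKM at 48 h, a rise of 5.02 ± 0.83 (adjusted p = 0.00037). Reg3b stood at 1360, 189 and 2450 FPKM in saline and 17200, 8070 and 15400 FPKM at 48 h, and Reg3a rose by 3.52 ± 1.15 (adjusted p = 0.033), a call that was lost when any 1 of 5 of the 6 libraries was left out. The groups did not overlap for these 3 genes, although the saline values spread widely, lowest in replicate 2. At 8 h Reg3g was at 1.58, 2.21 and 5.51 FPKM, below every saline library, and at 24 h at 2220, 1950 and 4200 FPKM. The other 3 of the 6 members tested were not called against saline, while all 6 were higher at 48 h than at 8 h.

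Genes listed as markers of dedifferentiated and repairing acinar cells stayed above saline. Which cells of the tissue held these transcripts was not tested, and macrophage and fibroblast markers rose as well. Of 21 listed, 14 rose and 1, Tff2, fell (median 0.96). Cd44, the hyaluronan receptor, read 1.02, 1.11 and 2.72 FPKM in saline and 18, 13.1 and 13.7 FPKM at 48 h, a rise of 2.65 ± 0.31 (adjusted p = 9.9e-06). Cldn4, a tight junction claudin, was at 2.69, 1.49 and 0.952 FPKM in saline and 14, 65.1 and 13.9 FPKM at 48 h, with replicate 2 far above the other 2. The calcium-binding proteins S100a6 and S100a11 rose by 2.06 and 1.89 and Anxa2, which binds membranes, by 1.79. Against 8 h, 11 of the 21 were lower at 48 h and 6 higher: Cldn4 had been at 152, 135 and 108 FPKM. Lcn2, an iron-carrier binding protein of injured epithelium, rose by 2.98 against saline and was called lower than at 8 h.

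Cytoskeletal genes followed the same course. Of 19 keratins, actins, tubulins and their partners 16 rose and none fell (median 1.05). Tmsb10, which binds actin monomers, was at 9.33, 11.4 and 14.6 FPKM in saline and 44.3, 62.5 and 48.7 FPKM at 48 h, a rise of 2.05 ± 0.22 (adjusted p = 5.7e-06). Tubb6, a beta tubulin, read 2.28, 2.57 and 2.95 FPKM in saline, 80.1, 82.1 and 73.6 FPKM at 8 h and 8.71, 11.8 and 7.68 FPKM at 48 h. Against 8 h, 12 of the 19 were lower at 48 h and 3 higher. Duct markers were mixed: of 12, 3 rose and 2 fell. Spp1 (osteopontin) stood at 115, 69.8 and 71.9 FPKM in saline and 210, 331 and 297 FPKM at 48 h, Krt19 rose by 1.12, and Sox9, a factor of ducts and centroacinar cells, fell by 0.92 ± 0.24 (adjusted p = 0.0079, a call lost under the rescaling). Spp1 is also made by macrophages, whose markers rose.

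**Figure D3:**
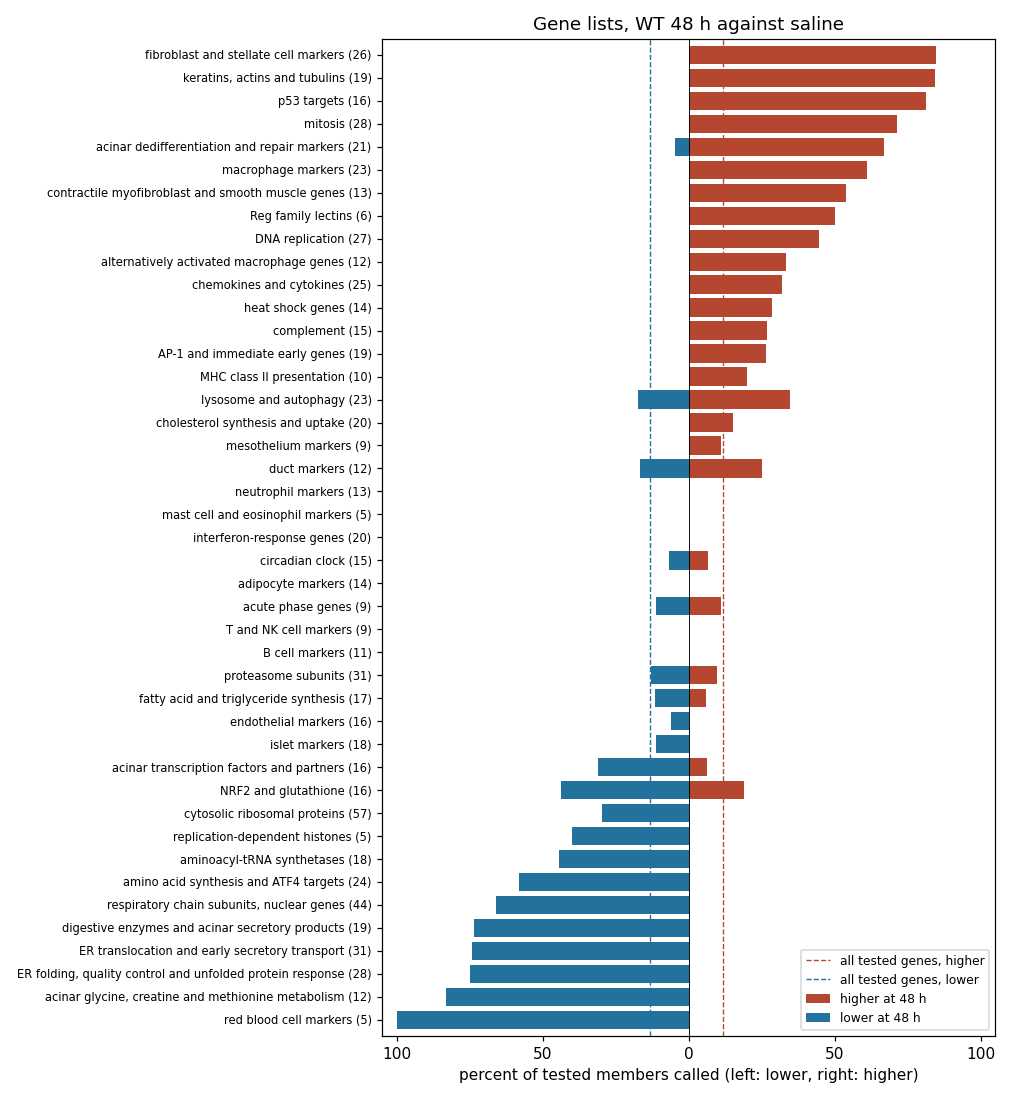
Percent of the tested members of each gene list that were called lower (blue, left) or higher (red, right) in WT 48 h against WT saline, with the number tested in brackets and lists of at least 5 shown; dashed lines give the shares over all genes, 13.5% lower and 11.8% higher. Fibroblast, cytoskeletal, p53 and mitosis lists extend far to the right, and red blood cell, glycine and creatine, ER and enzyme lists far to the left.

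Matrix genes stood high at 48 h. Of 26 fibroblast and stellate cell markers, 22 rose and none fell (median 1.91). Tnc, the matrix glycoprotein tenascin C, read 0.0292, 0.0759 and 0.0725 FPKM in saline, 0.317, 0.338 and 0.102 FPKM at 8 h, 0.847, 1.67 and 1.49 FPKM at 24 h and 30.2, 17.3 and 17.9 FPKM at 48 h. Its rise against saline was 4.38 ± 0.27 (adjusted p = 6e-09), and all 48 h libraries stood above every other WT library. Lox, which crosslinks collagen, went from 1.37, 1.19 and 1.39 FPKM to 34.3, 20.3 and 22.7 FPKM, a rise of 3.50 ± 0.20 (adjusted p = 4.1e-09). Postn (periostin) rose by 3.63 ± 0.36 and Timp1, an inhibitor of matrix metalloproteinases, by 3.42 ± 0.40. The collagen gene Col5a2 was at 3.74, 4.64 and 5.82 FPKM in saline and 37.5, 32.6 and 34.2 FPKM at 48 h, and Bgn (biglycan) at 19.5, 24.2 and 25.3 FPKM and 110, 103 and 104 FPKM.

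Within the v2 guide 22 of the 26 were higher at 48 h than at 8 h and none lower (median 2.02), and within the earlier guide 21 of 26 were higher at 24 h than in saline (median 1.26). The summed level of the list was 302 to 394 FPKM in saline, 314 to 360 FPKM at 8 h, 663 to 1103 FPKM at 24 h and 937 to 1463 FPKM at 48 h, so that 48 h stood apart from saline and 8 h and overlapped 24 h. The count was 20 without 48 h replicate 2.

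Contractile genes of myofibroblasts and smooth muscle rose in 7 of 13 members, and none fell (median 1.08). Acta2, smooth muscle actin and the usual mark of an activated stellate cell, was at 4.68, 7.6 and 7.02 FPKM in saline, 3.07, 3.62 and 3.68 FPKM at 8 h, 18.8, 12 and 14.4 FPKM at 24 h and 95.7, 30.1 and 57.1 FPKM at 48 h, a rise of 2.93 ± 0.30 (adjusted p = 3.7e-06). Tagln (transgelin) read 4.12, 4.91 and 4.01 FPKM in saline and 71.3, 26.2 and 49.6 FPKM at 48 h. For both genes every 48 h library stood above every other WT library, and replicate 1 was highest and replicate 2 lowest. The order of the 48 h replicates was the same for Thbs1 (thrombospondin 1), a matrix glycoprotein, at 2.67, 3.33 and 10.2 FPKM in saline and 145, 42.9 and 82.6 FPKM at 48 h (rise of 3.85 ± 0.40, adjusted p = 4.8e-06). In the macrophage and B cell lists the order was reversed, with replicate 2 highest and replicate 1 lowest.

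Macrophage markers rose in 14 of 23 members, and none fell (median 1.58). Trem2, a lipid receptor of tissue macrophages, read 1.08, 0.936 and 0.0417 FPKM in saline and 7.01, 17.1 and 9.79 FPKM at 48 h, a rise of 2.85 ± 0.39 (adjusted p = 5.6e-05). Ms4a7 stood at 2.05, 0.881 and 2.46 FPKM in saline and 9.43, 24.5 and 23.3 FPKM at 48 h, and Mpeg1, a pore-forming protein of phagocytes, rose by 2.46 ± 0.42. Summed, the list was at 77.8, 93.4 and 195 FPKM in saline and 283, 941 and 577 FPKM at 48 h, with no overlap, and at 632 to 1061 FPKM at 24 h. Without 48 h replicate 2 the count was 12. Of 12 genes of alternatively activated macrophages 4 rose, including Mrc1 (CD206) and the scavenger receptor Stab1, at 8.46, 8.86 and 13.9 FPKM in saline and 24.3, 65.2 and 37.3 FPKM at 48 h. Without 48 h replicate 2 this list had 2 higher and 1 lower.

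Chemokines and cytokines had 8 of 25 members higher and none lower (median 0.58). Ccl2, which recruits monocytes, was at 0.757, 0.655 and 1.57 FPKM in saline, 30.4, 32.1 and 15.6 FPKM at 8 h, 23.6, 19.1 and 25.5 FPKM at 24 h and 13.2, 10.8 and 8.11 FPKM at 48 h. The 48 h libraries thus lay above saline (2.56 ± 0.35, adjusted p = 5.3e-05) and below every library of both earlier times. Ccl8 read 0, 1.94 and 0.62 FPKM in saline and 4.77, 31.6 and 18.4 FPKM at 48 h, and Csf1, the macrophage growth factor, rose by 1.49 ± 0.21. Of 15 complement genes 4 rose, namely Cfi and the 3 C1q chains that macrophages make, with C1qa at 14, 16.5 and 25.1 FPKM in saline and 31.5, 106 and 68.8 FPKM at 48 h. MHC class II presentation had 2 of 10 higher (median 0.89), a count that ran from 1 to 5 when single libraries were left out. The lysosome list had 8 of 23 higher and 4 lower (median 0.27), and under the rescaling 14 higher and none lower. Over all genes 11.8% were higher and 13.5% lower.

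Other leukocyte and tissue markers were mostly not called. None of 13 neutrophil, 11 B cell, 9 T and NK cell, 5 mast cell and eosinophil, 14 adipocyte or 20 interferon-response genes were called in either direction. Their spread was wide: Igkc, an antibody light chain, read 8.81, 176 and 313 FPKM in saline and 4.21, 2070 and 370 FPKM at 48 h, and the neutrophil protein S100a8 0.812, 2.11 and 8.07 FPKM and 0.388, 16.1 and 21.9 FPKM. Cxcl13, a chemokine of lymph node stroma, was at 0.159, 14.2 and 40.3 FPKM in saline and 0.227, 37.3 and 8.01 FPKM at 48 h, so replicate 1 of both groups was near 0. Whether lymphoid tissue in some samples had a part in the values of the immune lists was not tested. Mast cell and endothelial medians, -0.19 and -0.30, turned to 0.13 and 0.16 under the rescaling. Endothelial markers had 1 of 16 lower (Plvap, by 0.59, a call lost in 8 of 17 other settings) and mesothelium 1 of 9 higher (Krt19). Of 3 Schwann cell and neuron markers 1 was called, Uchl1, with an adjusted p of 0.003. The 1 intestinal marker tested, Vil1, read 0.284, 0 and 1.26 FPKM in saline and 0.321, 0.644 and 0.55 FPKM at 48 h.

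Red blood cell markers were lower at 48 h in 5 of 5 members (median -2.08). Hbb-bs, a beta globin, read 39.2, 26.4 and 36.2 FPKM in saline, 28.3, 32.9 and 93.1 FPKM at 8 h, 35.5, 63.6 and 37.7 FPKM at 24 h and 9.91, 7.93 and 4.55 FPKM at 48 h, and fell by 2.08 ± 0.46 (adjusted p = 0.0029). All 48 h libraries lay below every other WT library, and the 5 genes were also lower than at 8 h within the v2 guide. The globin genes are near-identical pairs, so the level of each one is uncertain. Of 18 islet markers 2 fell, Ttr by 1.54 and Scg3 by 1.05, and without 48 h replicate 2 none did. The glucagon gene Gcg stood at 191, 92.1 and 366 FPKM in saline, 43.5, 47.6 and 73 FPKM at 24 h and 184, 92.9 and 167 FPKM at 48 h, overlapping saline. At 24 h 16 of the 18 islet markers were lower than in saline.

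**Figure D4:**
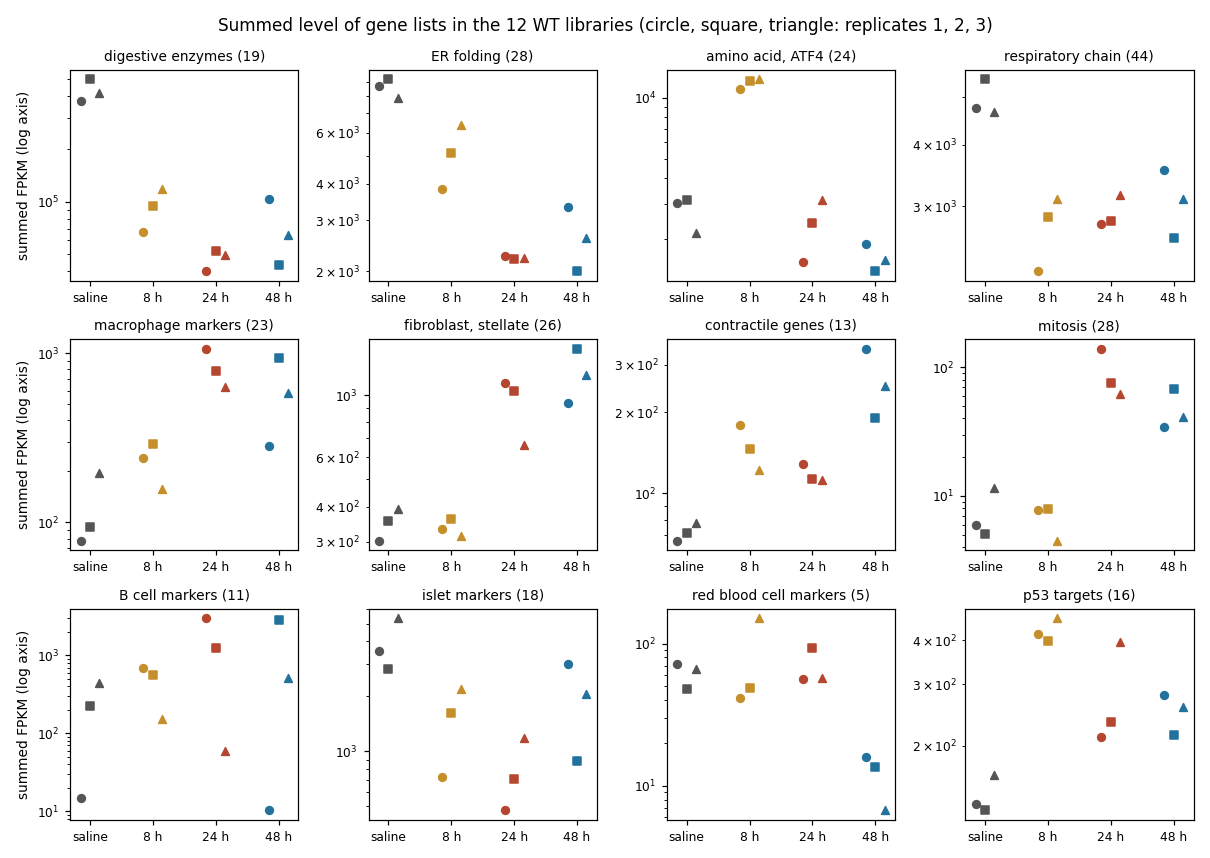
Summed FPKM of the members of 12 gene lists in the 12 WT libraries, on log axes that differ between panels; circles, squares and triangles are replicates 1, 2 and 3 of a group, and the number of genes summed is in brackets. At 48 h the fibroblast sum is 937 to 1463 FPKM against 302 to 394 FPKM in saline, the red blood cell sum 6.75 to 16.1 FPKM against 48.0 to 72.1 FPKM, and the B cell sum runs from 10.3 to 2821 FPKM.

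Cell division genes were above saline. Of 28 mitosis genes 20 rose and none fell (median 0.89), and of 27 DNA replication genes 12 rose and none fell (median 0.42). Cdk1, the kinase that starts mitosis, read 0.565, 0 and 0.182 FPKM in saline, 18.1, 9.16 and 7.45 FPKM at 24 h and 5.02, 7.34 and 7.33 FPKM at 48 h, and rose by 2.61 ± 0.42 against saline (adjusted p = 0.00024). Top2a stood at 1.19, 0.665 and 1.63 FPKM in saline and 3.2, 6.01 and 4.81 FPKM at 48 h. Mcm6, part of the replicative helicase, was at 1.48, 0.889 and 1.15 FPKM in saline and 3.06, 5.25 and 4.13 FPKM at 48 h. The groups did not overlap for these 3 genes. The summed mitosis list was at 5.09 to 11.5 FPKM in saline, 4.50 to 7.98 FPKM at 8 h, 62.2 to 139 FPKM at 24 h and 34.3 to 67.8 FPKM at 48 h. These levels are low, and without 48 h replicate 2 the counts were 11 mitosis and 6 replication genes. Within the v2 guide 23 of the 28 mitosis genes were higher at 48 h than at 8 h and none lower.

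Targets of p53, which arrest the cycle or promote death of damaged cells, rose in 13 of 16 members, and none fell (median 1.00). Phlda3, an inhibitor of the kinase AKT, had nearly equal values within each group, 1.68, 2.32 and 2.08 FPKM in saline and 19, 17.9 and 19.6 FPKM at 48 h, and rose by 2.72 ± 0.23 (adjusted p = 7.3e-07). Bax, a mediator of apoptosis, stood at 6.95, 11.8 and 8.41 FPKM in saline and 27.1, 27.9 and 27.2 FPKM at 48 h. Zmat3 and Tnfrsf10b, a death receptor, rose by 0.97 and 0.95. The count stayed between 10 and 12 when any 1 library was left out, and it was 13 under the rescaling to the total outside the enzymes. Against 8 h, 9 of the 16 were higher and 5 lower.

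Early stress genes had come down from 8 h. Of 19 AP-1 and immediate early genes 5 rose (median 0.17) and 15 were lower than at 8 h. Atf3 read 0.778, 0.634 and 2.42 FPKM in saline, 267, 275 and 256 FPKM at 8 h and 5.71, 7.52 and 5.25 FPKM at 48 h, so it was still above saline by 1.72 ± 0.24 (adjusted p = 5.8e-05). Of 14 heat shock genes 4 rose, with Hspa8 at 125, 72.5 and 121 FPKM in saline and 193, 211 and 253 FPKM at 48 h, and 12 were lower than at 8 h. In the NRF2 and glutathione list 7 of 16 fell and 3 rose (median -0.17), which turned under the rescaling to 3 lower and 5 higher (median 0.31). The metallothionein Mt2 went from 960, 630 and 598 FPKM in saline through 4860, 5290 and 7110 FPKM at 8 h to 158, 145 and 191 FPKM at 48 h, below every saline library. Gstm1 fell by 1.30 and Gstm2, also a glutathione transferase, by 1.58, while Txnrd1, which reduces thioredoxin, rose by 0.74 ± 0.13 (adjusted p = 0.00052).

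Abundant housekeeping lists shifted slightly downward on the authors' scale. Of 57 cytosolic ribosomal protein genes 17 fell and none rose (median -0.47), and of 44 nuclear genes for respiratory chain subunits 29 fell and none rose (median -0.58). Atp5b, of the ATP synthase, read 475, 467 and 420 FPKM in saline and 304, 213 and 249 FPKM at 48 h, and Rpl10 544, 844 and 645 FPKM and 420, 297 and 372 FPKM. Both lists turned under the rescaling to the total outside the enzymes, to medians of 0.16 and 0.04, with 3 ribosomal genes called higher and none lower, and 2 respiratory genes higher and 1 lower. Relative to the median of all genes they were at -0.49 and -0.60 on the authors' scale and at -0.29 and -0.41 after it. With quantile normalization they were at 0.05 and -0.18 relative to that median. The calls there were 1 higher and 10 lower for the ribosomal list, and none higher and 10 lower for the respiratory list. Of 31 proteasome subunits 3 rose and 4 fell (median -0.17), which turned to 10 higher and none lower under the rescaling (median 0.43) and to 7 higher and 1 lower with quantile normalization (median 0.10). Without 48 h replicate 2, 3 ribosomal and 12 respiratory genes were called lower.

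On the authors' scale the cholesterol, fatty acid, clock and acute phase lists had counts near or below the shares over all genes, 11.8% higher and 13.5% lower. Of 20 genes for cholesterol synthesis and uptake 3 rose (median 0.25), Msmo1 and Pmvk among them, and under the rescaling 12. The call of Msmo1 was lost without either of 2 libraries and that of Pmvk without any 1 of 4. In the list of 17 genes for fatty acid and triglyceride synthesis 1 rose, Me1, which supplies NADPH, and 2 fell, Acacb and Gpam. The fall of Acacb was lost without any 1 of 4 libraries and that of Gpam without any 1 of 3, and under the rescaling the list had 3 higher and none lower. Of 15 circadian clock genes Bhlhe41 rose by 0.74, a call lost in 8 of 16 other settings and without any 1 of 4 libraries, and the median of the list, 0.10, turned to -0.19 with quantile normalization. Arntl (BMAL1) fell by 0.74 ± 0.15, from 3.85, 4.22 and 5.59 FPKM in saline to 3.12, 2.2 and 1.71 FPKM at 48 h. Its call was lost under the rescaling and when the spread came from the 2 compared groups alone. Of 9 acute phase genes Lcn2 rose and Itih4, a protease inhibitor heavy chain, fell by 2.69 ± 0.52 (adjusted p = 0.0011). Of 18 replication-dependent histone genes 13 were below the level filter, and 2 of the 5 tested were lower, with none called under the rescaling. Pmm1, a phosphomannomutase of sugar activation, rose by 3.40 ± 0.38 from 1.9, 0.933 and 4.73 FPKM to 32.3, 30.8 and 34.7 FPKM, and Hamp2, a gene of the hepcidin family, read 303, 412 and 360 FPKM in saline and 84.1, 33.6 and 52.1 FPKM at 48 h. The small nucleolar RNA gene Snora3 was listed at 0 in every saline library and at 14.7, 13.3 and 3.55 FPKM at 48 h. How libraries of polyadenylated RNA recover such small RNAs under either guide was not tested.

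Some genes called at 24 h against saline were not called at 48 h and differed from saline by under 0.5. Among those with the largest 24 h change, Mmp3 (stromelysin) stood at 1.16, 0.25 and 0.959 FPKM in saline, 7.37, 3.47 and 13.2 FPKM at 24 h and 0.6, 2.5 and 0.993 FPKM at 48 h. Hp (haptoglobin) read 1.49, 28.2 and 17.1 FPKM in saline, 199, 113 and 37.2 FPKM at 24 h and 0.387, 50 and 14.5 FPKM at 48 h, and Ly6a 16, 31.4 and 23.3 FPKM, 186, 68.3 and 78.1 FPKM, and 15.3, 73.7 and 29.1 FPKM. The 48 h values of these 3 genes overlapped saline. Of the genes lower at 24 h, Zfp771, a zinc finger gene, was at 11.7, 10.7 and 7.8 FPKM in saline, 1.73, 2.56 and 2.47 FPKM at 24 h and 5.79, 6.44 and 10.5 FPKM at 48 h, and Gmppb, which makes GDP-mannose, at 65.1, 18.9 and 87.3 FPKM, 5.48, 21.5 and 5.91 FPKM, and 78.3, 21 and 22.8 FPKM. For Hp, Ly6a and Gmppb the 24 h and 48 h values overlapped too.

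The HET mice allow a test of whether the 48 h difference depended on Nr5a2 copies, in which both genotypes have the same guide at each time, apart from WT saline replicate 3, whose guide is not given. Nr5a2 itself, whose deleted part the labels do not give, read 9.09, 8.01 and 8.79 FPKM in HET saline, below all 3 WT saline values, and 5.7, 3.75 and 2.64 FPKM in HET at 48 h, overlapping WT. The difference between HET and WT in the change from saline to 48 h was called for 153 of 12851 genes (1.19%), of which 113 were lower in HET (0.879%) and 40 higher (0.311%). That balance turned under the rescaling, with 7 lower and 15 higher of 22, and with the spread of the 4 groups compared, with 1 lower and 5 higher of 6. Acinar genes were among those lower in HET. Tmed11, a cargo receptor of the early secretory path, went from 262, 350 and 283 to 96.1, 35.6 and 59.5 FPKM in WT and from 364, 205 and 265 to 5.13, 1.78 and 0 FPKM in HET, a difference between the changes of -4.41 ± 0.66 (adjusted p = 0.0061). Gnmt, which methylates glycine, ended at 39.4, 15.3 and 23.1 FPKM in WT and 4.32, 2.03 and 0.265 FPKM in HET. Of 28 ER folding genes 5 were called and of 19 enzymes 3, all lower in HET.

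In the other direction, Cldn4 ended at 14, 65.1 and 13.9 FPKM in WT and at 112, 93.3 and 194 FPKM in HET. The difference between its changes was 2.97 ± 0.64 (adjusted p = 0.028), a call kept in 16 of 23 other settings. Cdh1 (E-cadherin), at 24, 30.5 and 24.3 FPKM in WT at 48 h and not called there against saline, was at 49.7, 45 and 55.1 FPKM in HET. Fcrls, a receptor of tissue macrophages, rose in WT from 2.6, 2.17 and 1.75 to 5.49, 11.3 and 8.38 FPKM and reached 30.8, 40.1 and 26.6 FPKM in HET. No member of the fibroblast, contractile, mitosis, replication and p53 lists was called for a difference in 48 h response, against 1.19% of all genes. That test compares changes and not levels. The summed mitosis list was higher in every HET than in every WT library. It was at 16.7 to 29.6 against 5.09 to 11.5 FPKM in saline and 80.2 to 117 against 34.3 to 67.8 FPKM at 48 h. The replication sums were also higher in HET at both times, the fibroblast and contractile sums in saline only. The p53 sums overlapped at both times. The count of 153 ran from 57 (without WT 48 h replicate 3) to 384 (without WT 48 h replicate 2) when single libraries were left out.

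**Figure D5:**
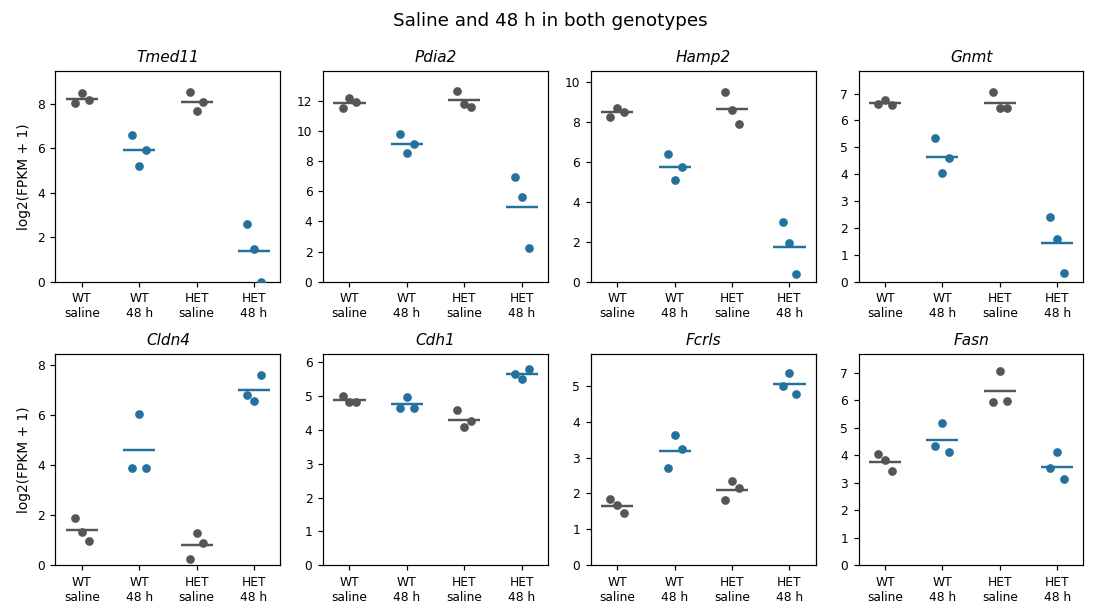
Levels of 8 genes as log2(FPKM + 1) in the saline (grey) and 48 h (blue) libraries of WT and HET mice; points are libraries and bars are group means (n = 3). At 48 h Tmed11, Pdia2, Hamp2 and Gnmt are lower in every HET library than in every WT library, and Cldn4, Cdh1 and Fcrls higher.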

How the data were processed

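Pancreatic poly(A) RNA (integrity numbers 6.6 to 9.2) was made into libraries by either guide and read on a Genome Analyzer IIx, per the labels' protocols. Processing notes of the submitters name CASAVA 1.8, Bowtie, Cufflinks 2.0.2, Cuffnorm and mm9, without roles or order. FPKM, 1 line per Ensembl gene, is what the authors deposited; the header states no unit, and it was inferred from Cuffnorm and the range of values. Depth is unknown, so the spread between 3 animals per group gives the precision.

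Genes with at least 1 FPKM in 3 of 24 libraries were kept (12871 of 36806). A gene at 0 throughout a group while at least 100 FPKM in every library of another was taken as missing there, with neighbours within 3000000 bases at 0 there and at least 1 FPKM in another group (48 genes, 18 in a compared group); this rule was set and its distance widened with values seen. One mean per group over 24 libraries was fitted to log2(FPKM + 1) by limma 3.58.1 (R 4.3.3; trended, robust moderation; 16 residual degrees of freedom), two-sided, with Benjamini-Hochberg adjustment per comparison, and tested on simulated data. In the simulations 200 of 12823 genes, drawn from the better expressed ones, were changed. The test recovered 24.2% of 1.5-fold, 68.5% of 2-fold and 96.2% of 4-fold changes, with 6 false calls per run. A gene not called may therefore still differ. The log2(FPKM + 1) scale understates changes near 1 FPKM. Promoters came from RefSeq GRCm38.p6 by symbol; no mm9 coordinates were used.

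Members, lists and comparisons were chosen with earlier results of these data known. Named genes are Nr5a2; up to 12 per direction by size of change (official symbol, 5 FPKM or more in the higher group, called, no overlap); up to 5 per list by adjusted p, or 2 if none was called; up to 6 per direction called at 24 h and within 0.5 of saline at 48 h; and up to 6 per direction differing between genotypes, with the same filters read on the 48 h libraries. Some are not reported here. Alternatives covered pseudocount, filter, scaling, moderation, zeros, spread and each library.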

Additional observations from a re-analysis of the deposited data

Results flagged for a closer look

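For 20 of the named genes the change from saline to 48 h differed between HET and WT in the test of that difference itself (limma, adjusted p under 0.05, log2 values of HET minus WT). The change was lower in HET for Tmed11 at -4.41, Pdia2 at -4.38, Hamp2 at -4.16, Tmed6 at -3.78, Try10 at -3.77, Fasn at -3.51 and Gnmt at -3.21. It was also lower for Amy1 at -2.91, Cuzd1 at -2.90, Fabp4 at -2.77, Slc38a5 at -2.60, Me1 at -2.58, Derl3 at -2.36 and 2200002J24Rik at -2.29. It was higher in HET for Ctnnd1 at 1.19, Fcrls at 1.42, Cdh1 at 1.48, Cxcl14 at 1.61, Nt5dc2 at 1.91 and Cldn4 at 2.97. Tmed11, Gnmt, Hamp2, Fasn, Cdh1 and Nt5dc2 kept the call in 22 of 23 alternative settings each. Pdia2 and Slc38a5 kept it in 12 each, Cuzd1 and 2200002J24Rik in 10 each and Cxcl14 in 9. Try10 and Amy1, of families whose members may share reads, kept it in 16 each. Fasn, fatty acid synthase, stood at 60.5, 131 and 61.4 FPKM in HET saline against 15.4, 13.1 and 9.84 FPKM in WT saline, so its difference includes a difference between the saline groups. The fat cell gene Fabp4 stood at 114, 172 and 139 FPKM in HET saline against 40.4, 52.9 and 49.3 FPKM in WT saline, and Me1 at 7.63, 28.1 and 5.98 FPKM against 1.01, 1.57 and 0.563 FPKM. The 14 adipocyte markers, Fabp4 included, moved with them: their sum was 347, 821 and 523 FPKM in HET saline, 71.2, 183 and 132 FPKM in WT saline, 55.3, 173 and 43.5 FPKM in HET at 48 h and 63.6, 292 and 166 FPKM in WT at 48 h. Their part in the differences of Fasn, Fabp4 and Me1 was not tested. Groups of 3 libraries are too small for a check for single outlying values.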

How the results depend on the processing

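No paired analysis was possible because the labels carry no replicate numbers and tie no animals together. Against 3259 genes called between WT 48 h and saline, the count was 1838 without WT 48 h replicate 2 and 1797 when the spread came from the 2 compared groups alone, and leaving out each library in turn gave 1838 to 3391. For 24 h against saline (5013) it was 7799 with the rescaling to the total outside the enzyme and Reg genes and 3170 with the spread of its own groups. For the difference in 48 h response between genotypes (153) it was 284 with quantile normalization, 22 with that rescaling (68.2% higher in HET, against 26.1%), 6 when only the groups compared gave the spread, and 57 to 384 with each library left out, lowest without WT 48 h replicate 3 and highest without WT 48 h replicate 2, with 81 without WT saline replicate 1, 76 without WT 48 h replicate 1 and 63 without HET 48 h replicate 3. The cause was not tested. The other settings stayed within 1.5 times, among them a pseudocount of 0.1 or 5 FPKM, no filter, a filter of 5 FPKM, the zeros kept, plain moderation and, chosen after seeing the data, leaving out small RNA genes (3241). The share of calls that were higher was 46.7% and became 94.8% with the rescaling.

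Of 169 named genes called against saline, 100 kept the call in every alternative and 69 lost it in at least 1. Under the rescaling alone, 6 genes called lower turned direction: Hars (0.018), Psmd4 (0.074), Psmd3 (0.10), Ndufs1 (0.11), Psmc4 (0.20) and Plvap (0.015). Without sequencing depth, levels near 1 FPKM have no stated counting error, and the treatment and the guide cannot be told apart between 48 h and saline.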
